A study of Homo sapiens with 6 samples.

Results

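The genes described here are those with 0 reads in every control library of a knockdown experiment and reads in the knockdown libraries. AsPC-1, an established human pancreatic cancer cell line, carried either a control lentivirus (control group, 3 libraries) or an shTMPRSS4 lentivirus (shTMPRSS4 group, 3 libraries). The latter expresses a hairpin meant to lower TMPRSS4, a serine protease of the cell membrane. Per the labels, both groups are the same cell line and both were transduced, and no time after transduction is given. The labels do not say whether replicates were separate cultures or whether 1 clone was used. The deposited table held 753 genes, and 49 of them (6.51%) had 0 counts in control replicates 1, 2 and 3. Of these 49, 10 were left out by name, among them endocrine transcription factors, pepsinogens and MHC class II genes. The remaining 39 genes (5.18% of the table) are the subject here. They were chosen by their control counts, from a table the authors had itself selected on the difference between the groups, so their being higher in the shTMPRSS4 group is no finding and carries no test.

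A read count of 0 is not proof that a gene is silent. RNA sequencing samples fragments from a very large pool, so a rare transcript can be missed by chance. Where a fragment matches several genes equally well, how it is counted depends on the counting software. Genes near the detection limit therefore show the limits of a library as well as its biology. The pancreas and the gut share an endodermal origin, and their epithelia hold secretory cells that include endocrine, goblet and tuft cells, each with its own peptides, receptors and transcription factors.

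The recovered depth was 57200000, 37200000 and 30200000 reads in control replicates 1, 2 and 3 and 53300000, 50400000 and 46800000 reads in the shTMPRSS4 replicates. Over the 3 controls this is 124600000 reads, and a count of 0 allows up to 3 counts in that total. Control replicate 3 differs from the other 5 libraries in a short code within its label, whose meaning the labels do not give. Without it 40 genes met the rule, and without control replicate 1, the deepest, 53 did. The knockdown could not be checked, since TMPRSS4 itself was not among the table's genes. None of 11 ductal and epithelial identity genes, such as KRT19 and EPCAM, was among the table's genes, so the identity of the line was not checked either.

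Several of the 39 genes had little or no sequence of their own, which is shown first because it bears on what their counts mean. Each gene's transcripts in GENCODE release 29 were divided into all stretches of 31 bases (31-mers), and those that also occur in transcripts of another gene were counted. In 9 of the 39 genes at least 20% of the 31-mers occurred in another gene, against 132 of 753 genes in the whole table (17.5%). The share among the 39 was 23.1%, close to that background. TBC1D3H had 2035 31-mers and every one of them occurred in another gene, the only gene of 753 (0.133%) for which this held. AC068775.1 had 1 31-mer of its own, TNFSF12-TNFSF13 had 27, PINX1 had 28 and AL691442.1 had 30.

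**Figure D1:**
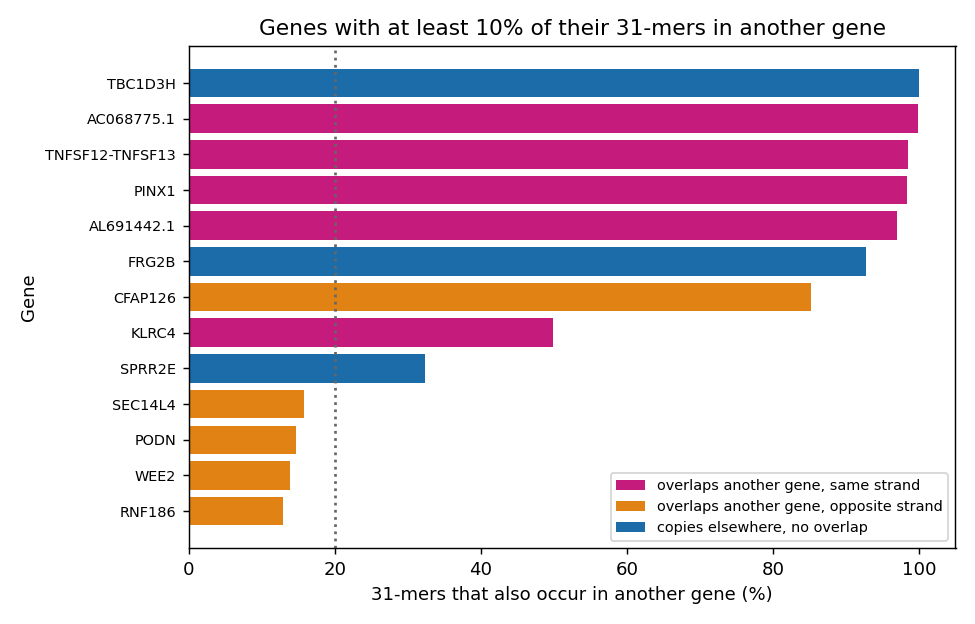
Share of a gene's 31-mers that also occur in another gene (horizontal axis, percent) for the 13 of 39 genes at 10% or more. Colour marks whether a gene's exons overlap those of another gene on the same strand, on the opposite strand or on neither. The overlapping gene need not hold all of the shared 31-mers. The dotted line marks 20%, and 5 genes exceed 95%.

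TBC1D3H belongs to a hominoid gene family with a Rab GTPase-activating domain, whose copies lie on chromosome 17 (TBC1D3H at 36377531 to 36388423, GRCh38). Of its 31-mers 98.5% also occurred in TBC1D3G, 94.2% in TBC1D3I and 83.3% in TBC1D3B. Over 1647 coding bases it differed from TBC1D3G at 1 base, from TBC1D3I at 3 and from TBC1D3B at 5. The coding window around the 1 difference from TBC1D3G (coding bases 320 to 379) shows how little separates the copies. Capitals mark the bases that differ between TBC1D3H and a copy, and substitutions are counted from 1 at the window's first base.
TBC1D3H: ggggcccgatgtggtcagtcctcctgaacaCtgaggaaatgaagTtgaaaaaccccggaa
TBC1D3G: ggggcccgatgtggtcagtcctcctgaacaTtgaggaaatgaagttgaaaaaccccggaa
TBC1D3I: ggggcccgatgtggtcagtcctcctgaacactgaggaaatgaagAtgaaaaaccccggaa
TBC1D3B: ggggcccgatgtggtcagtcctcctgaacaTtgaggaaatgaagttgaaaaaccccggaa
TBC1D3G and TBC1D3B carry C31T here, and TBC1D3I carries T45A. A read that covers the position of C31T and not that of T45A fits TBC1D3H and TBC1D3I equally.

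TBC1D3H had 619, 556 and 0 counts in shTMPRSS4 replicates 1, 2 and 3, or 5.62, 5.34 and 0 FPKM (fragment counts scaled by gene length and library depth). Replicates 1 and 2 were thus high and close to each other, while replicate 3 was at 0 like the 3 controls, so the groups overlapped. In the authors' deposited table it had the largest log2 fold change of all 753 genes, 11.83, with a false discovery rate (FDR) of 0.0234. In the authors' deposited table a control mean of 0 is entered as 0.001 FPKM, so that log2 value depends on the placeholder. No other TBC1D3 copy was among the table's genes, and how the authors assigned reads that match several copies is not given in the sources used here.

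Members that span 2 neighbouring genes formed another set. TNFSF12-TNFSF13 (chromosome 17, 7549099 to 7561601) is a readthrough gene, in which transcription runs from TNFSF12 (the cytokine TWEAK) into TNFSF13 (the cytokine APRIL) and splicing joins both. All of its exon bases lie in exons of another gene on the same strand, and 69.2% of its 31-mers occurred in TNFSF13 and 29.3% in TNFSF12. AL691442.1 (chromosome 1, 155063748 to 155086807) joins the ephrin genes EFNA4 and EFNA3 in the same way, with 81.3% of its 31-mers in EFNA3 and 15.7% in EFNA4. The sequence that sets such a gene apart is the splice junction, printed here with 30 bases on each side. Lower case is the upstream gene's exon and capitals are the downstream gene's exon.
TNFSF12-TNFSF13: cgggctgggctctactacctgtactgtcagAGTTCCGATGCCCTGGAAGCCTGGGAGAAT
AL691442.1: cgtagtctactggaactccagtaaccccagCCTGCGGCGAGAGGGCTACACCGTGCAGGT
The junction lies between exons 6 and 7 of 11 in TNFSF12-TNFSF13 and between exons 1 and 2 of 5 in AL691442.1, in coding sequence in both.

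TNFSF12-TNFSF13 had 23, 36 and 27 counts in the shTMPRSS4 libraries (0.24, 0.39 and 0.32 FPKM), an even set of values. AL691442.1 had 15, 0 and 22 counts (0.27, 0 and 0.45 FPKM), and replicate 2 at 0 put it level with the controls. Both component genes of each pair were outside the table and not analysed here, so the readthrough counts could not be set beside them.

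FRG2B (chromosome 10, 133623895 to 133626795), a gene of the facioscapulohumeral dystrophy region family, shared 90.7% of its 31-mers with FRG2 on chromosome 4 and differed from it at 5 of 837 coding bases. It had 16, 12 and 4 counts (0.20, 0.16 and 0.06 FPKM), lowest in replicate 3. SPRR2E (chromosome 1, 153093135 to 153106184), a small proline-rich protein of the cornified envelope of skin, shared 32.4% of its 31-mers with other genes. Its coding sequence differed from SPRR2A at 5 and from SPRR2D at 3 of 216 bases, and the window of coding bases 153 to 212 holds all 5 of the first set. Capitals mark differing bases as above.
SPRR2E: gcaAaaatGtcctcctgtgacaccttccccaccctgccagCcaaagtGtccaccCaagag
SPRR2A: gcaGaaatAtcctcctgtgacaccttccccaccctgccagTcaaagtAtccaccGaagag
SPRR2D: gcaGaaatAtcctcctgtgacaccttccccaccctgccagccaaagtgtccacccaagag
CFAP126 (chromosome 1, 161364731 to 161367874), a protein of ciliary basal bodies, had all of its exon bases inside exons of SDHC, a mitochondrial dehydrogenase subunit gene on the opposite strand. It was the 1 gene of 39 with at least 50% of its exon bases covered in this way, against 0.93% of the table. Of its 31-mers 85.2% occurred in SDHC and 110 were its own. Whether the libraries kept the strand is not given in the sources used here, and without it reads of the shared stretches cannot be told apart. CFAP126 had 13, 5 and 4 counts (0.31, 0.13 and 0.11 FPKM), with replicate 1 the highest.

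The gene listed as PINX1 (ENSG00000258724, chromosome 8, 10725399 to 10839847) is a separate record from the telomerase inhibitor gene PINX1, with which it shared 26.5% of its 31-mers. It shared 71.9% with SOX7, a neighbouring transcription factor gene. All of its exon bases lie in exons of other genes on the same strand, as in TNFSF12-TNFSF13 and AL691442.1. Its 10, 10 and 11 counts (0.11, 0.11 and 0.13 FPKM) were even across the shTMPRSS4 libraries. AC068775.1 (chromosome 12, 10412312 to 10436001) shared 81.6% of its 31-mers with KLRC3 and 51.1% with KLRC2, genes for lectin-like receptors of natural killer cells. It had 18, 1 and 38 counts (0.34, 0.02 and 0.81 FPKM), so replicate 2 was near 0 and replicate 3 held 69.5% of the depth-scaled counts. In all, 5 of the 39 genes (12.8%) had at least 50% of their exon bases in exons of another gene on the same strand, against 4.25% of the table, the fifth being KLRC4 with 50.3%. That difference is a description without a test.

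Most of the 39 genes were at very low levels. Mean FPKM over the 3 shTMPRSS4 libraries ranged from 0.0267 (ADAMTS20) to 3.65 (TBC1D3H), with a median of 0.157 and quartiles of 0.0767 and 0.293. The median was 1.61 FPKM over the other 516 genes of the table that were higher in the shTMPRSS4 group, and 1.35 over all 753. TBC1D3H and GPR142 were the 2 genes at 1 FPKM or more, and 36 were under 0.5 FPKM. Summed counts over the shTMPRSS4 libraries ranged from 20 to 1175 with a median of 33, and 27 genes had fewer than 50. Of the 39 genes 11 passed edgeR's filter on low counts, against 93.6% of the table. Those 11 passed only through the group in which they were high, and no filter was applied to the results below.

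**Figure D2:**
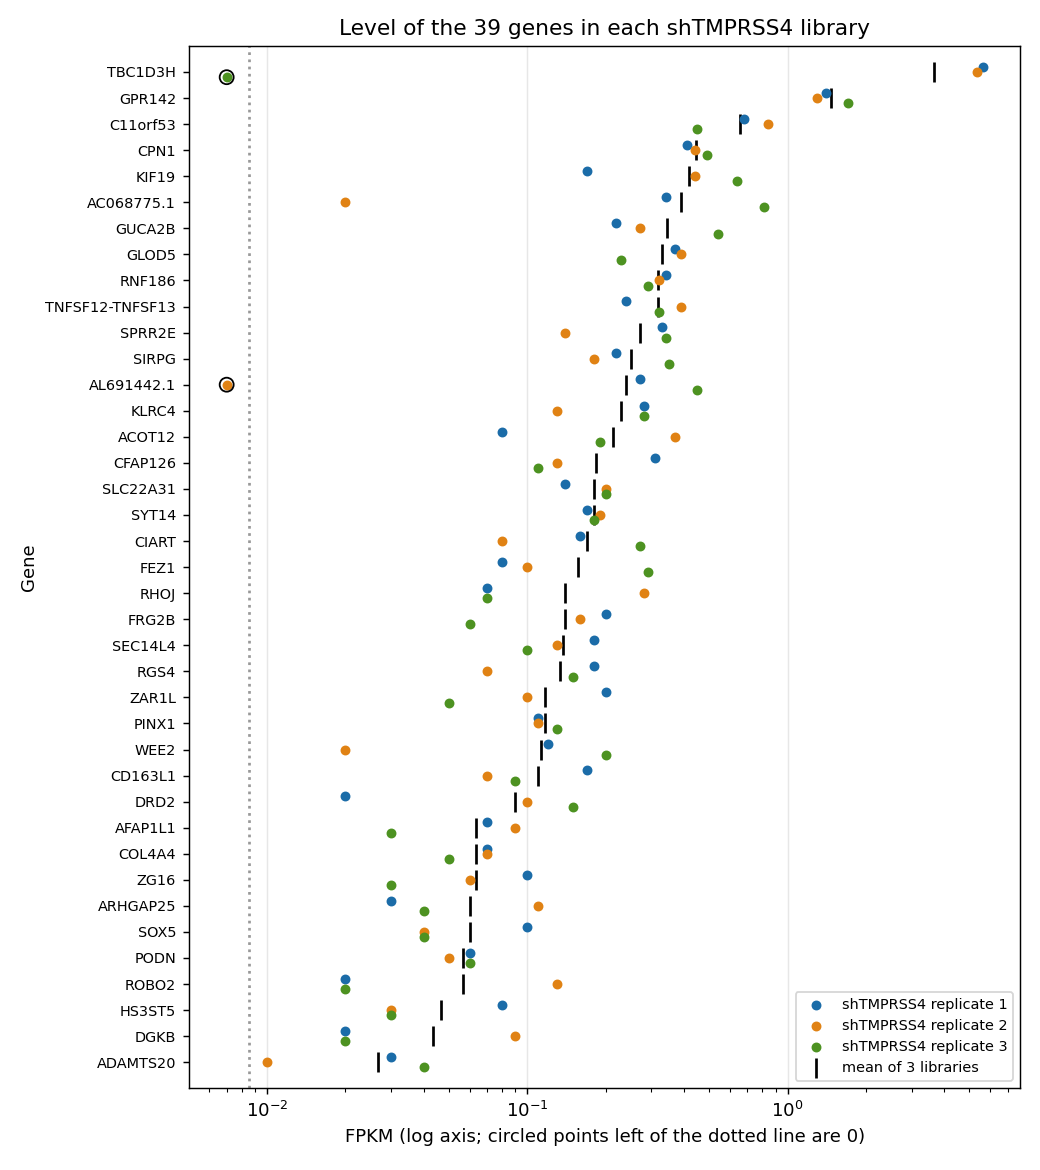
Level of each of the 39 genes (vertical axis, ordered by mean) in FPKM (horizontal log axis) in the 3 shTMPRSS4 libraries, with a black bar at the mean. The points circled at 0 are TBC1D3H in replicate 3 and AL691442.1 in replicate 2, and every control value is 0 and not drawn.

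Reads were present in all 3 shTMPRSS4 libraries for 37 of 39 genes (97.7% of the table had this), the exceptions being TBC1D3H and AL691442.1. For the same 37 every shTMPRSS4 value lay above every control value, as it did for 548 genes of the table (72.8%), a count that the rule itself sets here. At least 5 counts in each library were found for 25 genes and at least 10 for 12. Leaving out TBC1D3H, the 39 genes' reads summed to 674, 671 and 684 counts in replicates 1, 2 and 3, or 12.6, 13.3 and 14.6 RPM of recovered depth. The sum was therefore similar in the 3 libraries even though single genes were uneven.

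Because the control counts were 0, a fold change has no upper limit and is given as a lower bound, the depth-scaled shTMPRSS4 counts against 3 counts over the control group. Such bounds allow for counting error in the controls only and take the shTMPRSS4 counts as exact. Because the genes were chosen for 0 control counts, the bounds describe the counts and are not confidence limits. The bound ranged from 5.52-fold to 324-fold with a median of 9.11, and it was at least 10-fold for 17 genes and at least 20-fold for 8. When the libraries were scaled over the table's genes alone, the median bound was 4.07 with DESeq2 size factors and 3.99 with TMM, and the lowest bound of any gene was 2.47 and 2.42. Without control replicate 1 the median bound was 4.93. In the authors' deposited table the FDR of the 39 genes ranged from 2.97e-11 (GPR142) to 0.0426 (ADAMTS20) with a median of 0.00706, against 1.31e-05 over all genes in the authors' deposited table. In the authors' deposited table an FDR under 0.001 was held by 10 of the 39 (25.6%) and by 64.1% of all 753.

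GPR142, C11orf53, GUCA2B, RNF186 and ZG16, genes known from gut and endocrine epithelium, formed the role group with the highest median level. All 5 had at least 5 counts in each shTMPRSS4 library, and their median level was 0.343 FPKM against 0.157 for the 39. This grouping by role was made with the values known. GPR142 (ENSG00000257008, chromosome 17, 74367407 to 74372622), a receptor for aromatic amino acids found on islet and gut endocrine cells, had 108, 94 and 114 counts, or 1.41, 1.30 and 1.70 FPKM. Its mean of 1.47 ± 0.207 FPKM (SD, n = 3) was the second of the 39, and the 3 libraries lay close together. Its fold bound was 87.2, and none of its 31-mers occurred in another gene.

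C11orf53 (ENSG00000150750, chromosome 11, 111245805 to 111286401), now named POU2AF2, encodes a coactivator of POU2F3, the transcription factor of tuft cells. It had 41, 48 and 24 counts, or 0.68, 0.84 and 0.45 FPKM, with replicate 3 the lowest. Its mean was 0.657 ± 0.196 FPKM (SD, n = 3) and its fold bound was 31.2. It too had no 31-mer in common with another gene. The tuft cell list of 15 genes had 1 gene in the table, ALOX5, and POU2F3 was not among the table's genes. A related coactivator, POU2AF1, lies 65851 bases away and was in the table at 1.02, 0.82 and 1.18 FPKM in the controls and 3.48, 3.20 and 3.49 in the shTMPRSS4 libraries. COLCA2, 12154 bases from C11orf53, had 10.6, 7.21 and 9.22 FPKM in the controls and 29.8, 29.5 and 30.7 in the shTMPRSS4 libraries. The groups overlapped for neither POU2AF1 nor COLCA2, and 72.8% of the table had every shTMPRSS4 value above every control value.

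GUCA2B (ENSG00000044012, chromosome 1, 42153421 to 42155824) encodes uroguanylin, a gut peptide that activates the receptor guanylate cyclase C and so fluid secretion. It had 7, 8 and 15 counts, or 0.22, 0.27 and 0.54 FPKM, with replicate 3 the highest, and its fold bound was 8.28. Its neighbour GUCA2A, which encodes guanylin and lies 6867 bases away, had 1.57, 0.47 and 0.76 FPKM in the controls and 5.21, 6.0 and 5.75 in the shTMPRSS4 libraries. GUCA2A was thus detected in every control at a higher level than GUCA2B reached in any shTMPRSS4 library except in control replicate 2, where its 0.47 FPKM was below the 0.54 of GUCA2B in shTMPRSS4 replicate 3. These were the 2 genes of the absorptive enterocyte list of 21 in the table.

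RNF186 (chromosome 1, 19814029 to 19815278), a membrane-bound ubiquitin ligase of the colonic epithelium, had 23, 20 and 17 counts, or 0.34, 0.32 and 0.29 FPKM, among the most even values. An antisense gene overlaps 15% of its exon bases. ZG16 (chromosome 16, 29778240 to 29782973), a lectin stored in goblet cell granules, had 17, 10 and 5 counts, or 0.10, 0.06 and 0.03 FPKM, highest in replicate 1. It was 1 of 11 genes of the 26 on the goblet cell and secretory progenitor list that were in the table. All 11 were higher in the shTMPRSS4 group, against 73.7% of the table, and their summed level was 67.5 to 71.2 FPKM in the controls and 320 to 327 in the shTMPRSS4 libraries. Of 50 enteroendocrine and islet genes 7 were in the table and none was among the 39. The endocrine transcription factors left out by name had 0 control counts but were not on this list, so neither number covers them. The summed level of the 7 was 5.19 to 6.79 FPKM in the controls and 32.1 to 33.6 in the shTMPRSS4 libraries. These lists were chosen with earlier results known, and their part in the levels of GPR142 and ZG16 was not tested. In these bulk libraries, more cells of a type and more RNA per cell cannot be told apart.

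Genes known from neurons and synapses made up 7 of the 39, with levels from 0.0433 to 0.18 FPKM. Roles were given to the 39 genes only, so this count has no share of the whole table beside it. SYT14 (ENSG00000143469, chromosome 1, 209938174 to 210171389), a synaptotagmin of vesicle traffic, had 46, 48 and 43 counts, or 0.17, 0.19 and 0.18 FPKM, the most even values of all 39. Its fold bound was 37.8. ROBO2, an axon guidance receptor for Slit proteins, had 4, 26 and 4 counts (0.02, 0.13 and 0.02 FPKM), and DGKB, a diacylglycerol kinase of the brain, had 4, 20 and 5 counts (0.02, 0.09 and 0.02 FPKM). Both were high in replicate 2 alone, and without it their bounds were 3.32-fold and 3.74-fold in place of 9.39-fold and 8.0-fold.

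DRD2, a dopamine receptor, had 2, 9 and 13 counts (0.02, 0.10 and 0.15 FPKM) and FEZ1, an axonal transport adaptor, had 4, 5 and 13 (0.08, 0.10 and 0.29 FPKM). RGS4, a brake on G protein signalling, had 16, 6 and 12 counts, and SOX5, a transcription factor of cartilage and neurons, had 14, 5 and 5. Replicate 3 was thus the highest for DRD2 and FEZ1 and replicate 1 for RGS4 and SOX5. Of the fixed neuron and synapse list of 35 genes, TUBB3 alone was in the table, and none of the 7 belonged to that list.

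Ciliary and cytoskeletal genes included KIF19 (ENSG00000196169, chromosome 17, 74326210 to 74355820), a kinesin that shortens microtubules at the ciliary tip. It had 25, 62 and 84 counts, or 0.17, 0.44 and 0.64 FPKM, with replicate 1 the lowest. Its fold bound was 47.2, and 34.8 without replicate 3. RHOJ, a small GTPase of endothelial cells, had 7, 27 and 6 counts (0.07, 0.28 and 0.07 FPKM), high in replicate 2 alone, with a bound of 11-fold and 5.40-fold without that library. Of 10 endothelial cell genes PECAM1 was in the table, at 0.53, 0.38 and 0.66 FPKM in the controls and lower, at 0.20, 0.24 and 0.15, in the shTMPRSS4 libraries. AFAP1L1, an actin-binding protein, had 12, 14 and 5 counts. Of 14 ciliated cell genes DNAI1 and PIFO were in the table, at a summed level of 0.29 to 0.35 FPKM in the controls and 1.02 to 1.27 in the shTMPRSS4 libraries.

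Enzymes, transporters and lipid-handling genes were led by CPN1 (ENSG00000120054, chromosome 10, 100042193 to 100081877), the catalytic subunit of a plasma carboxypeptidase that trims bradykinin and complement peptides. CPN1 had 28, 28 and 29 counts, or 0.41, 0.44 and 0.49 FPKM, and its fold bound was 23.5. GLOD5, a glyoxalase-domain gene, had 13, 13 and 7 counts (0.37, 0.39 and 0.23 FPKM), lowest in replicate 3. SLC22A31, an organic ion transporter family member, had 14, 19 and 18 counts, and SEC14L4, a lipid-binding protein, had 20, 13 and 10. ACOT12, an acetyl-CoA hydrolase, had 6, 25 and 12 counts and HS3ST5, a heparan sulfate sulfotransferase, had 14, 5 and 4. CPN1 and SLC22A31 were even, while ACOT12 had 57.3% of its depth-scaled counts in replicate 2. The hepatocyte list of 14 genes had AMBP and F2 in the table, 1 higher and 1 lower.

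Genes known from immune cells were SIRPG, KLRC4, CD163L1 and ARHGAP25. SIRPG, a T cell receptor for CD47, had 16, 12 and 22 counts (0.22, 0.18 and 0.35 FPKM). KLRC4 (chromosome 12, 10407382 to 10409757), a natural killer cell lectin-like receptor gene, had 14, 6 and 12 counts (0.28, 0.13 and 0.28 FPKM). CD163L1, a scavenger receptor of macrophages, had 20, 8 and 9 counts and ARHGAP25, a GTPase-activating protein of leukocytes, had 4, 13 and 4. No gene of the T and NK cell list (14 genes) or the B and plasma cell list (10 genes) was in the table. Of 14 myeloid genes ITGAX was, and it was lower in the shTMPRSS4 group, at 0.13 to 0.33 FPKM in the controls and 0.02 to 0.03.

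KLRC4 and AC068775.1 lie 2555 bases apart within the natural killer receptor cluster, beside KLRC2 and KLRK1, which were also in the table. KLRC2 had 0.19, 0.12 and 0.32 FPKM in the controls and 1.17, 0.76 and 0.72 in the shTMPRSS4 libraries. KLRK1 had 0.06, 0.04 and 0.13 FPKM in the controls and 0.36, 0.46 and 0.38 in the shTMPRSS4 libraries. The groups did not overlap for either gene, and 72.8% of the table had every shTMPRSS4 value above every control value. KLRC4 shared 49.0% of its 31-mers with the readthrough gene KLRC4-KLRK1 and 12% with KLRC2, so the values of KLRC4, AC068775.1 and KLRC2 are not readings of fully separate sequences.

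The matrix genes were COL4A4, PODN and ADAMTS20. COL4A4 (chromosome 2, 227002711 to 227164453) encodes a type IV collagen chain of the kidney's filtration barrier. It had 35, 34 and 22 counts, or 0.07, 0.07 and 0.05 FPKM, and its fold bound was 25.1. The other type IV collagens in the table went opposite ways. COL4A1 had 0.17, 0.09 and 0.24 FPKM in the controls and 0.03, 0.04 and 0.02 in the shTMPRSS4 libraries, whereas COL4A2 had 2.48, 2.35 and 1.92 in the controls and 6.96, 7.26 and 7.80. PODN, a small leucine-rich proteoglycan, had 9, 7 and 9 counts. ADAMTS20, a secreted metalloproteinase, had 8, 3 and 9 counts, and with a sum of 20 it was the gene with the fewest, followed by ARHGAP25 with 21 and CFAP126 and FEZ1 with 22.

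SPRR2E, for which the coding window is printed above, had 12, 5 and 11 counts (0.33, 0.14 and 0.34 FPKM), with replicate 2 the lowest. Its relatives were at higher levels in both groups. SPRR2A had 0.22, 0.23 and 0.09 FPKM in the controls and 0.98, 1.99 and 1.66 in the shTMPRSS4 libraries, and SPRR2D had 0.82, 1.16 and 0.65 and then 5.06, 4.76 and 5.72. The oocyte genes WEE2, a kinase that holds meiosis, and ZAR1L had 12, 2 and 17 and 14, 7 and 3 counts. CIART, a repressor of the circadian clock, had 10, 5 and 15 counts. No gene of the germ cell and testis list of 20 was in the table, and 4 of 16 cornifying epidermis genes were. All 4 were higher in the shTMPRSS4 group, as were 73.7% of the table. Over all 19 cell type lists, which held 340 genes, ZG16 and GUCA2B were the 2 that belonged to the 39. None of the 10 genes left out by name was on these lists.

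**Figure D3:**
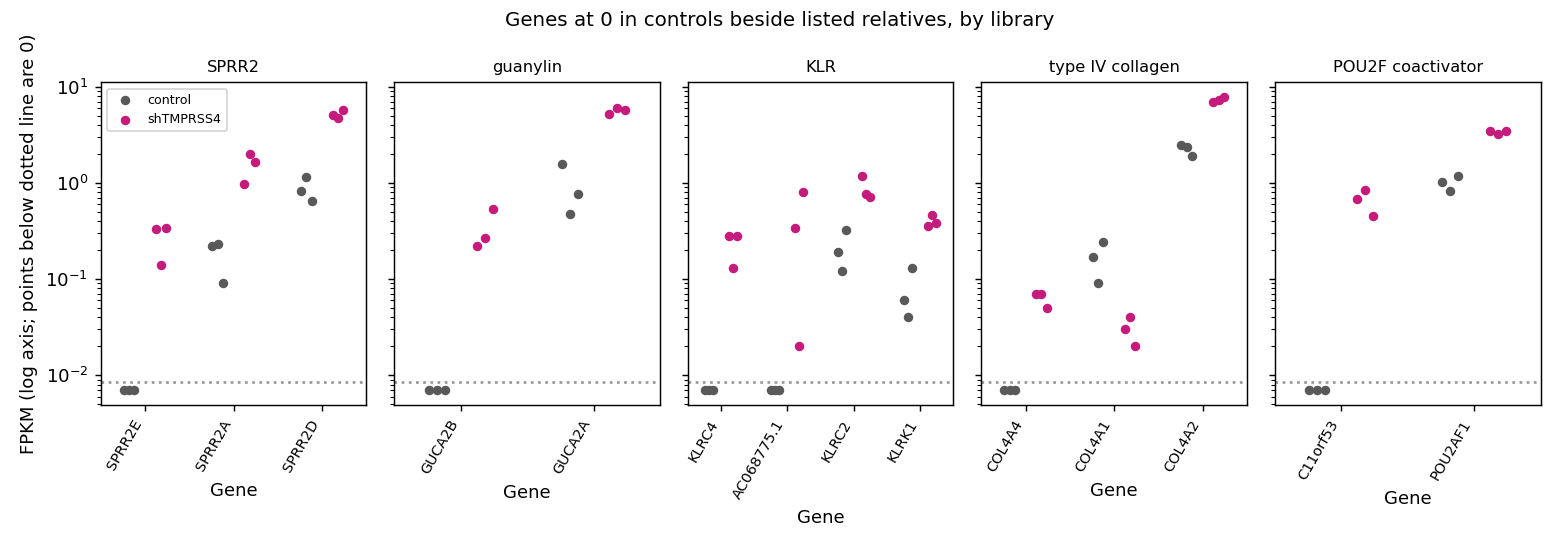
FPKM (vertical log axis) of 6 of the 39 genes beside relatives from the same table, with 3 control libraries in grey and 3 shTMPRSS4 libraries in magenta. Points below the dotted line are 0, and COL4A1 is the relative that was lower in the shTMPRSS4 libraries.

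Unevenness between the shTMPRSS4 libraries went with low counts. An equal split would put 1 in 3 of a gene's depth-scaled counts into each library. The median share in the highest library was 39.99% for the genes with at least 50 summed counts and 52.8% for the 27 with fewer. The largest of 3 shares rises at low counts through counting error alone, and its expected value was not calculated. Among the genes with at least 50 counts the highest shares were 69.5% for AC068775.1 at 57 counts, 51.4% for KIF19 at 171 and 51.3% for TBC1D3H at 1175. Replicate 1 was the highest for 12 genes, replicate 2 for 11 and replicate 3 for 16, so no single library carried the set. The highest library held more than 60% for 7 genes, namely ROBO2 with 76.3%, AC068775.1 as above, DGKB with 68.6%, RHOJ with 67.4%, AL691442.1 with 62.6%, ARHGAP25 with 61.6% and FEZ1 with 61.5%. For 14 of the 39 the fold bound shrank by more than 1.5 times when 1 shTMPRSS4 library was left out, and the lowest such bound was 3.32-fold.

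**Figure D4:**
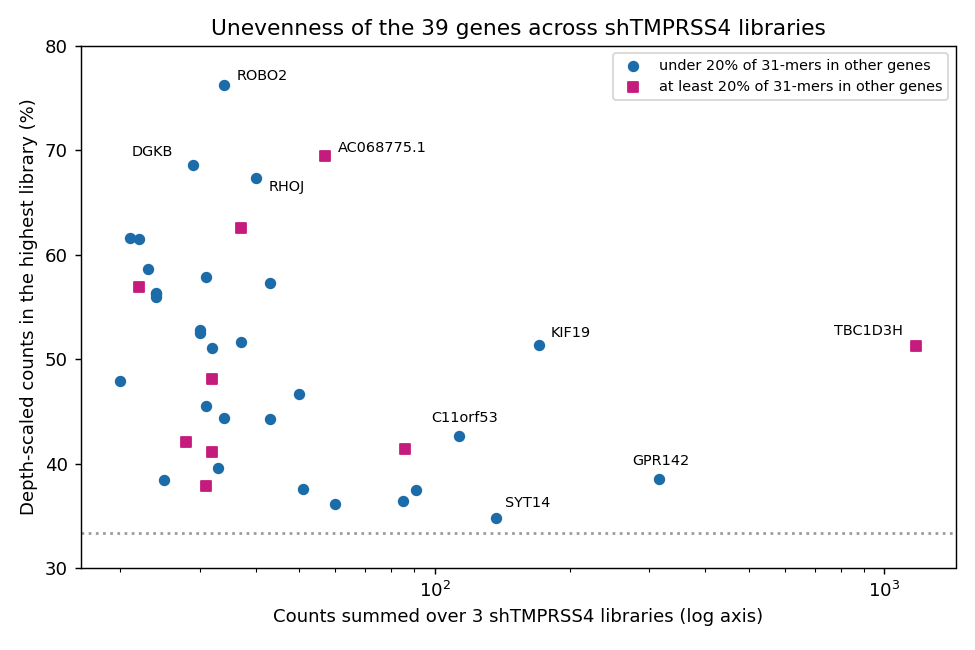
Share of a gene's depth-scaled shTMPRSS4 counts held by its highest library (vertical axis, percent) against its summed counts (horizontal log axis) for the 39 genes, with genes that share at least 20% of their 31-mers drawn as squares. The dotted line is an equal split, and shares above 60% occur only at sums under 60 counts.

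Some of the 39 genes lay beside other genes of the table. Another gene of the table within 100 kb was found for 11 of 39 (28.2%), against 23.8% of the table. GPR142 and KIF19 are 11587 bases apart on chromosome 17 with BTBD17 between them, 596 bases from KIF19 and 5461 from GPR142. BTBD17 had 0, 0.04 and 0.04 FPKM in the controls and 1.02, 0.90 and 1.16 in the shTMPRSS4 libraries. TTYH2, a chloride channel family gene 64190 bases from KIF19, had 0.26, 0.28 and 0.13 FPKM in the controls and 0.75, 0.56 and 0.55. For BTBD17 and TTYH2 every shTMPRSS4 value lay above every control value. This held for 72.8% of the table, which was itself selected on this contrast. DRD2 lies 9197 bases from ANKK1, which had 0.02 to 0.05 FPKM in the controls and 0.11 to 0.28 in the shTMPRSS4 libraries. PODN lies 1677 bases from the glutamate transporter gene SLC1A7, which had 0.25 to 0.70 and 2.66 to 3.78 FPKM.

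Start-site sequence was taken from RefSeq (GRCh38.p14), 250 bases before to 50 after each gene's start, and 28 of the 39 genes had an entry. The motif CAGNTG, an E-box bound by helix-loop-helix factors of secretory and endocrine lineages, was sought on both strands. It was in 15 of 28 (53.6%) and in 49.9% of all 35116 promoters of that length. TATAAA was in 5 of 28 (17.9%) against 11.5% and TAATTA in 1 of 28 (3.57%) against 4.84%. The promoters of GUCA2B, the gut peptide gene (chr1:42153160-42153459, plus strand), and of GPR142, the member with the highest level among those with sequence of their own (chr17:74367256-74367555, plus strand), are shown with CAGNTG in capitals. A match is a description of the letters only.
GUCA2B: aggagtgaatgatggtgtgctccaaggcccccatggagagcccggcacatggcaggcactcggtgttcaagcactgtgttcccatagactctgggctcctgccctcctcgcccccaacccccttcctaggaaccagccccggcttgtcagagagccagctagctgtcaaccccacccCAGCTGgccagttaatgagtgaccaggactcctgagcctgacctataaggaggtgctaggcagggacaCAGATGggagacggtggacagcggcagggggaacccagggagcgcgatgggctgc
GPR142: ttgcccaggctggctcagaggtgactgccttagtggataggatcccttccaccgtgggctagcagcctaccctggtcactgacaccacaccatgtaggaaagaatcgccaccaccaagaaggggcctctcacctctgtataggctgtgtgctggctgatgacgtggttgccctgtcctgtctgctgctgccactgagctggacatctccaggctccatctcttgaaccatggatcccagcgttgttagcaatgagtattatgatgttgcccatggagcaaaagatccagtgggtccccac
GUCA2B held 2 matches and GPR142 none.

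The threshold of 0 control counts is sharp, so genes on each side of it are set side by side. No gene of the table had 1 control count in all, and 5 had 2, namely CBFA2T3, DNAI1, OR13A1, PKD2L1 and SHD. CBFA2T3, a transcriptional corepressor, had 2, 0 and 0 control counts and 119, 102 and 77 in the shTMPRSS4 libraries. DNAI1, a dynein arm subunit of motile cilia, had 0, 2 and 0 and then 33, 20 and 31. OR13A1, an olfactory receptor, had 2, 0 and 0 and then 78, 47 and 77. PKD2L1, an ion channel of sour-sensing cells, and SHD, a signalling adaptor, had 38 and 39 summed shTMPRSS4 counts. The summed shTMPRSS4 counts of these 5 genes, 38 to 298, lay within the range of the 39 genes inside the rule. With up to 3 control counts allowed, 51 genes would meet the rule.

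The reverse pattern, 0 counts in all 3 shTMPRSS4 libraries, was found for 8 genes of the table (1.06%). These were KCNN1, CYP3A7-CYP3A51P, AL645922.1, C6orf201, SLC24A3, NLRP12, GOLGA8F and HOXC12. KCNN1, a calcium-activated potassium channel, had 37, 10 and 3 counts in the controls. Its fold bound, controls against the shTMPRSS4 libraries, was 20.1. The others had 16 to 35 control counts in all. The controls were sequenced less deeply in sum, 124600000 against 150500000 reads. The table is a selection in which 73.7% of genes were higher in the shTMPRSS4 group. The counts of 49 and 8 therefore describe the table and not all genes.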

How the data were processed

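RNA of 3 control and 3 shTMPRSS4 libraries was enriched with oligo(dT) beads and sequenced on an Illumina instrument, per the labels' protocols. Bowtie 0.12.2, mm8 and mm9 appear in the submitters' processing notes, although mm8 and mm9 are mouse builds and the identifiers are human Ensembl genes. Which tool counted reads, on which annotation, is not given in the sources used here. Per the file headers, the deposited table holds counts and FPKM for each library, and the FPKM are rounded to 2 decimals. The deposited table further gives group means of FPKM, the authors' log2 fold change, and a p-value and FDR. The table is the authors' selection of 753 genes on this same contrast.

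Members, lists and roles were chosen with earlier results of these data known. No test was fitted, because the control counts chose the members. Relative depth was the median ratio of count to FPKM over the 159 genes reaching 200 counts in every library. Absolute depth was estimated from genes with 1 transcript in GENCODE 29 and at least 200 counts, 14 to 27 genes per library. GENCODE 29 matched all 753 identifiers and gave coordinates (GRCh38). It need not be the authors' annotation. Fold bounds used a floor of 3 counts over the control group. The 31-mers of all transcripts were compared on both strands. Values in every library were given for the 12 genes with the highest mean and reads in each library, the 5 with the most shared 31-mers, list members and the 3 with the fewest counts, and others were added for completeness. Both calculations were tested on simulated data. Because the members were chosen by their control counts, that test does not show how often a fold bound holds for them. Tools were Python 3.11.15, Biopython 1.88, R 4.3.3, edgeR 4.0.16 (filter and TMM) and DESeq2 1.42.0 (size factors).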

Additional observations from a re-analysis of the deposited data

How the results depend on the processing

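The number of genes with 0 control counts was 39 with FPKM in place of counts, 51 with up to 3 control counts, and 40 to 53 when 1 control replicate was left out. The number with reads in every shTMPRSS4 library was 34 when at least 3 counts were asked for. The median level of 0.157 FPKM was 0.135 without the genes that share sequence (an alternative chosen after seeing the data) and 0.155 to 0.175 when 1 shTMPRSS4 replicate was left out. The median fold bound of 9.11 was 4.07 with DESeq2 size factors, 3.99 with TMM, 11 with no depth scaling and 3.04 with a floor of 3 counts in each control library. It ranged from 4.93 to 10.4 when 1 library was left out. Leaving out a control replicate or raising the floor allows a smaller bound by construction. DESeq2 and TMM were scaled over the table alone, in which 73.7% of genes were higher, and gave the shTMPRSS4 libraries larger factors. Genes sharing at least 50% of their 31-mers were 7, at least 10% (chosen after seeing the data) 13, and with 50-mers 9. No paired analysis was possible because the results come from no test. The depth of the control libraries limits every bound, and a level under the control floor was not detectable.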
